A study of Mus musculus with 36 samples.

Results

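Histone acetylation was examined at 10 genes of the cell division cycle in the dorsal hippocampus of the mouse: Cdc6, Ticrr, Clspn, Ube2t, Mki67, Top2a, Ccnb1, Cdk1, Ect2 and Diaph3. They are 10 of 21887 protein-coding genes on the assembled chromosomes of the mouse genome build GRCm38. The genes were picked with the results of these lists in view, so the values that follow describe them and support no inference about other genes. For each gene, peaks were collected over the gene body with 5 kb on each side, and the bases inside peaks within 2 kb of either gene end, called covered bases here, were counted for each mark and condition.

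Chromatin immunoprecipitation with sequencing (ChIP-seq) had been done for H3K9ac and H3K27ac, histone H3 acetylated on lysine 9 and on lysine 27, with 3 replicates per mark and condition and input chromatin beside them. All mice were males aged to at least 8 weeks. Knockdown mice had received an injection of an adeno-associated viral vector into the dorsal hippocampus (AAV2/9, U6.shACSS2.CMV.EGFP), which drives a short hairpin RNA against ACSS2 and the green fluorescent protein EGFP, and control mice had received a control vector. Ethanol was given intraperitoneally (2 g per kg, from a 20% solution in saline), while the labels name no injection for untreated mice. The conditions are called knockdown-ethanol, knockdown-untreated, control-ethanol and control-untreated. The labels do not say which share of hippocampal cells took up the vector, what the control vector carries or how long after ethanol the tissue was taken.

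Each condition is represented by 1 peak list per mark, which stands for its 3 replicates, so no spread between mice can be attached to any value and no test between conditions was possible. Sequencing depth is unknown, and deeper sequencing alone can lengthen a list. The lists held 42120 H3K9ac peaks in knockdown-ethanol, 38484 in knockdown-untreated, 31042 in control-ethanol and 38235 in control-untreated mice. For H3K27ac they held 119317 peaks in knockdown-ethanol, 101690 in knockdown-untreated, 86110 in control-ethanol and 89935 in control-untreated mice. The control-ethanol list was thus the shortest and the knockdown-ethanol list the longest for both marks, and the part of list length in the differences reported here was not tested except by cutting the lists to equal length.

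The tissue label was set against marker genes. Over all protein-coding genes, 56.0% had a peak within 2 kb of a gene end in all 8 lists and 6847 genes had none in any. The marker counts stand beside that share and were not tested against it. All 7 markers of mature neurons (Rbfox3, Snap25, Syt1, Map2, Camk2a, Slc17a7 and Gad1) had a peak within 2 kb of a gene end in all 8 lists. Neural progenitors and newborn granule neurons form the lineage of the adult dentate gyrus that holds dividing cells. Of 10 markers of this lineage, 5 had a peak in all 8 lists, among them Sox2, Neurod1, Sox11 and Prox1. Eomes and Igfbpl1 had none in any list and Dcx had one in 1 list. Among the other cells that can divide in this tissue, 5 of 7 oligodendrocyte precursor markers had a peak in all 8 lists, with Pdgfra at 0 throughout. Genes on these marker lists need not be confined to dividing cells, and no peak was assigned to such cells. The microglial markers Cx3cr1 and Tmem119 and the endothelial markers Pecam1, Tek and Cdh5 had no peak in any list.

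The cell division cycle is driven by waves of gene expression. E2F factors act on genes of DNA replication, which are induced before S phase, and the MuvB-type complexes act through the cell cycle genes homology region (CHR), often next to CCAAT boxes bound by NF-Y, on genes that peak in G2 and mitosis. H3K9ac and H3K27ac mark active promoters. In the adult hippocampus neurons no longer divide, and dividing cells are mainly progenitors of the dentate gyrus and glial precursors. In a bulk sample, acetylation in a few cells cannot be told apart from weak acetylation in many.

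The promoter sequences are shown because 84 of the 160 peaks collected over the 10 genes in the 8 lists lay within 1 kb of a start site. Of the other 76, 40 belonged to Diaph3. Each runs from 250 bases before to 49 bases after the start site, 5′ to 3′ on the strand of the gene, in the RefSeq promoter table of GRCm38.p6, which held all 10 genes. Capitals mark matches, on either strand, to an E2F site (TTCCCGC or TTCGCGC or TTGCCGC or TTGGCGC), the CHR (TTTGAA or TTCGAA) and the CCAAT box (CCAAT). The second CHR form is its own reverse complement and was counted once. Clspn and Ube2t are shown for replication and repair, Top2a as the gene with a peak in all 8 lists, and Ccnb1, Cdk1 and Ect2 for mitosis and cytokinesis. The windows are chr4:126556730-126557029 and chr1:134962315-134962614 on the plus strand, and chr11:99024140-99024439, chr13:100786437-100786736, chr10:69352863-69353162 and chr3:27153829-27154128 on the minus strand.
Clspn: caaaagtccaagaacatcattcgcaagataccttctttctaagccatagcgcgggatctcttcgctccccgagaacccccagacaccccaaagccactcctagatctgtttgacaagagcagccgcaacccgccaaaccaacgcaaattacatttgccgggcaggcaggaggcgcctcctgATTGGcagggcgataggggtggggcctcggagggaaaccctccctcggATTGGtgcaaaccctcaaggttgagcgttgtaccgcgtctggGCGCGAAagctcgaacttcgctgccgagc
Ube2t: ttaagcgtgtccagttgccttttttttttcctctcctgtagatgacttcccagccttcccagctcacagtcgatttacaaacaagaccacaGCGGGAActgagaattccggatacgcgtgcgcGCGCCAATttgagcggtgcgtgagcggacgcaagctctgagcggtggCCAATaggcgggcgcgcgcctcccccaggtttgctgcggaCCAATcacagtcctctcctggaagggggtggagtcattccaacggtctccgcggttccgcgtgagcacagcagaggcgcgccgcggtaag
Top2a: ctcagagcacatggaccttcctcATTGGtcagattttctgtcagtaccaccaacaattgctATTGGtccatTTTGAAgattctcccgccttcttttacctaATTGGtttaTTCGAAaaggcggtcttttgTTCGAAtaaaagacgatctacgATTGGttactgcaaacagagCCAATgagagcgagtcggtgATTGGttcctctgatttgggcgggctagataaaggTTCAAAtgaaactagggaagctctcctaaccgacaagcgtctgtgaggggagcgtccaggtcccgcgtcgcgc
Ccnb1: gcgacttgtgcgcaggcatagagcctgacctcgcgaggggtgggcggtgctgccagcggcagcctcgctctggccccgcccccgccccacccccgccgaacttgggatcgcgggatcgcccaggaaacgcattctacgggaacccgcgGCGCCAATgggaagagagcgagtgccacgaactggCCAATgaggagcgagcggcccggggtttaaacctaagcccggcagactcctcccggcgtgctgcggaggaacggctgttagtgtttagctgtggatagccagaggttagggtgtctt
Cdk1: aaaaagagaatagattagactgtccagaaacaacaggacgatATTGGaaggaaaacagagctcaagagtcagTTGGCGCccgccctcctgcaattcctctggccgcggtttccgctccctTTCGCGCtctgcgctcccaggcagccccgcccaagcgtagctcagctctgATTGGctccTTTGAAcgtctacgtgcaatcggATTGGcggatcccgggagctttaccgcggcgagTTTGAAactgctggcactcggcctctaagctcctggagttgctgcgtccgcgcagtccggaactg
Ect2: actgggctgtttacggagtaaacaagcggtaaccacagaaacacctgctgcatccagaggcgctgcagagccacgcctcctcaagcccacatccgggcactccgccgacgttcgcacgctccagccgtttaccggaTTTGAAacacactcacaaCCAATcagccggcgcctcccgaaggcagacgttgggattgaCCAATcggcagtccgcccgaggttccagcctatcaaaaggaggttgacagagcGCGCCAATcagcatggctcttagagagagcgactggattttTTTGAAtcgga

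The promoters of the 10 genes were rich in these motifs. An E2F match was found in 7 of 10 (Cdc6, Clspn, Ube2t, Mki67, Ccnb1, Cdk1 and Ect2), against 36.2% of 116 promoters from a list of other cell cycle genes and 12.2% of 17492 promoters of protein-coding genes. A CHR match was found in 4 of 10 (Mki67, Top2a, Cdk1 and Ect2), against 43.1% of the cell cycle promoters and 18.2% of all promoters. CCAAT was present in 9 of 10, all but Cdc6, and each of the 9 held at least 2, against 31.9% of the cell cycle promoters and 13.5% of all promoters with at least 2.

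Mki67, Cdk1 and Ect2 held all 3 motifs, as did 0.692% of all promoters. The Top2a promoter held 6 CCAAT and 4 CHR matches but no E2F match of these letters. In Ube2t, Ccnb1 and Ect2 an E2F match shares letters with a CCAAT match, so these counts are not independent there. The ratio of observed to expected CpG ran between 0.687 and 1.05 (median 0.864), near the median of 0.872 of the other cell cycle promoters and above the 0.576 of all promoters. A match describes the letters of the window only.

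The 10 genes had few covered bases for genes with any peak. Their largest H3K9ac coverage in the 4 lists ran between 294 bases (Cdc6) and 851 bases (Diaph3), with a median of 479.5, while the median over the 13887 protein-coding genes with an H3K9ac peak was 1481. For H3K27ac it ran between 211 bases (Cdc6) and 552 bases (Top2a), with a median of 318.5, against 1582 over 14955 genes. The percentiles of the 10 genes lay between 5.77 and 20.9 for H3K9ac and between 3.34 and 10.9 for H3K27ac.

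**Figure D1:**
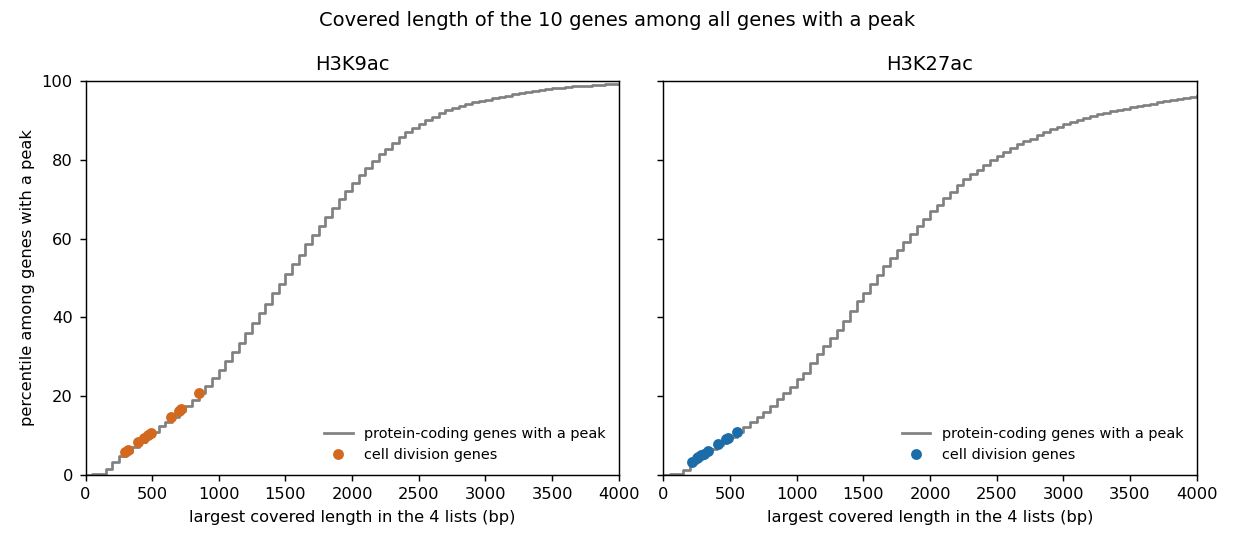
Percentile among protein-coding genes with a peak (y axis) by their largest number of covered bases in the 4 lists of a mark (x axis, bp), with the 10 cell division genes marked on the curve. All 10 sit in the low tail, between percentiles 5.77 and 20.9 for H3K9ac and between 3.34 and 10.9 for H3K27ac.

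Genes of such low coverage often had a peak in only some of the lists. Of the 1060 protein-coding genes whose largest H3K9ac coverage was 301 to 600 bases, 45.7% had a peak in all 4 lists, as did 2 of the 5 cell division genes in that range (Ube2t and Top2a). Between 601 and 900 bases the share was 85.1% of 1266 genes and 2 of 4 cell division genes (Cdk1 and Diaph3). For H3K27ac, 8.22% of the 791 genes with at most 300 bases had a peak in all 4 lists, as did 2 of 4 cell division genes (Mki67 and Ccnb1). Above that, 53.1% of the 1022 genes with 301 to 600 bases had a peak in all 4 lists, as did 2 of 6 cell division genes (Top2a and Ect2). At 1501 bases or more the share was 99.9% for both marks.

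A peak within 2 kb of a gene end was present for 7 of the 10 genes in knockdown-ethanol, 9 in knockdown-untreated, 7 in control-ethanol and 8 in control-untreated mice for H3K9ac. For H3K27ac it was present for 9 in knockdown-ethanol, 7 in knockdown-untreated, 8 in control-ethanol and 8 in control-untreated mice. Over all protein-coding genes such a peak was present at 57.5% to 61.3% in the H3K9ac lists and 63.9% to 66.8% in the H3K27ac lists. The number among the 10 genes was therefore similar in all lists, but the genes that made it up were not. Only Top2a had a peak in all 8 lists. The other 9 had one in some lists, as did 12.8% of all protein-coding genes (2792 genes), while 12248 genes had one in all 8 lists and 6847 in none.

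**Figure D2:**
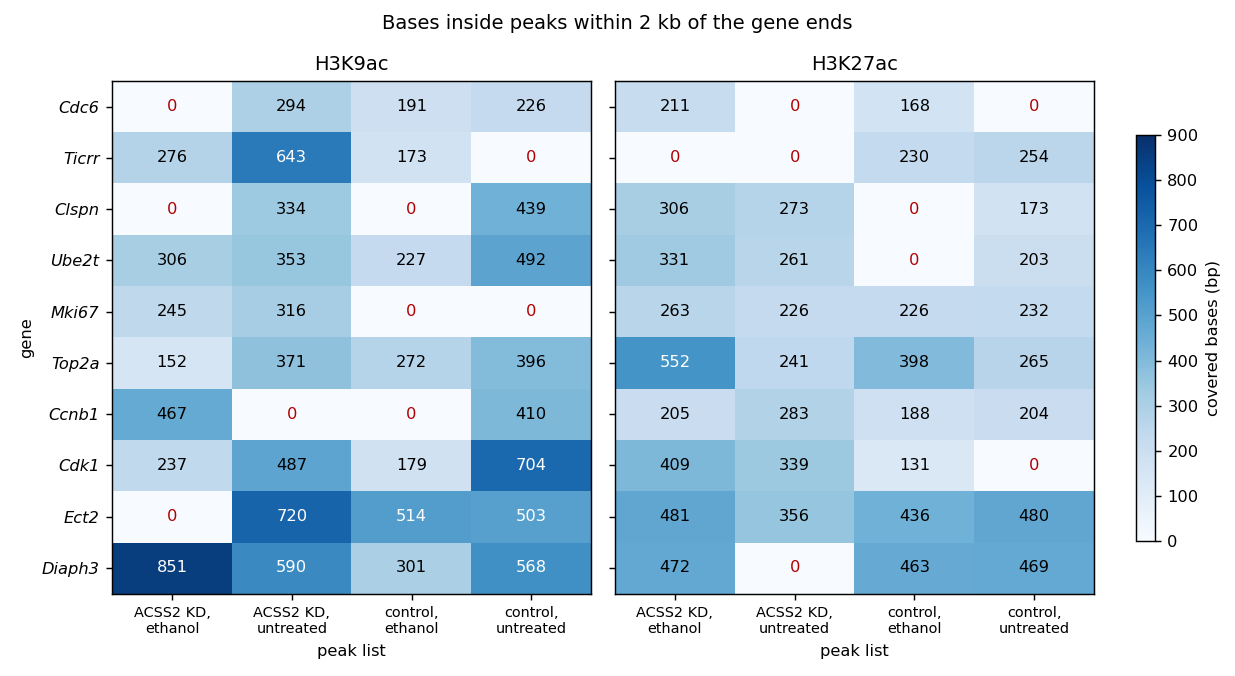
Covered bases within 2 kb of the gene ends (numbers and shade, bp) for each cell division gene (down the page) in each of the 8 lists (across). Top2a is the only gene with no 0, and the highest value is 851 bp for Diaph3 in the H3K9ac list of knockdown-ethanol mice.

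Cdc6 and Ticrr act at replication origins. Cdc6 (chr11:98907709-98923942, plus strand) loads the MCM helicase onto origins. Its H3K9ac coverage was 0 bases in knockdown-ethanol, 294 in knockdown-untreated, 191 in control-ethanol and 226 in control-untreated mice. Knockdown-ethanol was the one list without a peak. The H3K27ac coverage of Cdc6 was 211 bases in knockdown-ethanol, 0 in knockdown-untreated, 168 in control-ethanol and 0 in control-untreated mice. Both ethanol lists held a peak and both untreated lists held none. The places differed as well. In control-ethanol mice the H3K9ac peak lay 783 to 593 bases before the start site, whereas in control-untreated mice it spanned the site, from 113 bases before it to 112 after it. The knockdown-untreated H3K9ac and knockdown-ethanol H3K27ac values include bases of a peak near the far end of the gene.

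Ticrr (chr7:79660196-79698148, plus strand) encodes treslin, which is needed for the firing of licensed origins. It had 276 bases of H3K9ac in knockdown-ethanol, 643 in knockdown-untreated, 173 in control-ethanol and 0 in control-untreated mice. Control-untreated was the one list without a peak, and at equal list length the knockdown-ethanol peak was lost too. For H3K27ac it had 0 bases in knockdown-ethanol, 0 in knockdown-untreated, 230 in control-ethanol and 254 in control-untreated mice. Both knockdown lists held none and both control lists held a peak. Windows of 5 kb took in knockdown peaks inside the neighbouring gene Kif7, of 236 bases in knockdown-ethanol and 170 in knockdown-untreated mice. No other protein-coding gene had the same pattern of presence over the 8 lists as Ticrr, and none had that of Cdc6.

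Clspn and Ube2t protect the replication fork. Clspn (chr4:126556957-126594533, plus strand) encodes claspin, which passes the ATR checkpoint signal to CHK1. Its H3K9ac coverage was 0 bases in knockdown-ethanol, 334 in knockdown-untreated, 0 in control-ethanol and 439 in control-untreated mice. Both ethanol lists lacked a peak and both untreated lists held one, the only such pattern for H3K9ac among the 10 genes. The H3K27ac coverage of Clspn was 306 bases in knockdown-ethanol, 273 in knockdown-untreated, 0 in control-ethanol and 173 in control-untreated mice. In control-ethanol mice Clspn thus had neither mark. The 3 H3K27ac peaks lay just downstream of the start site, between 24 and 329 bases after it.

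Ube2t (chr1:134962565-134974180, plus strand) encodes the ubiquitin-conjugating enzyme of the Fanconi anaemia pathway of crosslink repair. It had 306 bases of H3K9ac in knockdown-ethanol, 353 in knockdown-untreated, 227 in control-ethanol and 492 in control-untreated mice. All 4 peaks lay within the first 492 bases of the gene, and the narrowest was in control-ethanol mice. Its H3K27ac coverage was 331 bases in knockdown-ethanol, 261 in knockdown-untreated, 0 in control-ethanol and 203 in control-untreated mice. Control-ethanol was the one list without a peak, as for Clspn. By score within their list, the other Ube2t peaks ranked at percentile 72.1 in knockdown-ethanol, 79.5 in knockdown-untreated and 80.2 in control-untreated mice. The median H3K27ac promoter peak of all genes ranked higher, at 90.4, 88.7 and 87.1 in these lists. The knockdown-ethanol value includes 144 bases of a peak near the far end of the gene.

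Mki67 and Top2a act on chromosomes. Mki67 (chr7:135689784-135716450, minus strand) encodes Ki-67, which coats mitotic chromosomes and is the usual marker of proliferating cells. Its H3K9ac coverage was 245 bases in knockdown-ethanol, 316 in knockdown-untreated, 0 in control-ethanol and 0 in control-untreated mice. In the full lists both knockdown conditions held a peak and both control conditions held none. The knockdown-untreated peak ranked at percentile 12.9 and was absent from lists of equal length, where the knockdown-ethanol list alone held a peak. The 2 peaks did not overlap, since the one in knockdown-ethanol mice lay 586 to 342 bases before the start site and the one in knockdown-untreated mice 24 to 339 bases after it. The H3K27ac coverage of Mki67 was 263 bases in knockdown-ethanol, 226 in knockdown-untreated, 226 in control-ethanol and 232 in control-untreated mice. The values were close to one another, although at equal list length the knockdown-untreated peak was lost as well.

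Top2a (chr11:98992947-99024199, minus strand) encodes topoisomerase II alpha, which untangles DNA before chromosomes separate. It had 152 bases of H3K9ac in knockdown-ethanol, 371 in knockdown-untreated, 272 in control-ethanol and 396 in control-untreated mice. For H3K27ac it had 552 bases in knockdown-ethanol, 241 in knockdown-untreated, 398 in control-ethanol and 265 in control-untreated mice. With either vector, the ethanol list had the lower H3K9ac and the higher H3K27ac coverage. Every list held a peak upstream of the start site, within 250 to 710 bases before it, and knockdown-ethanol mice had a further H3K27ac peak 18 to 312 bases after it that ranked at percentile 7.16 of its list.

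Ccnb1 and Cdk1 encode cyclin B1 and its kinase, which together drive entry into mitosis. Ccnb1 (chr13:100778739-100786486, minus strand) had 467 bases of H3K9ac in knockdown-ethanol, 0 in knockdown-untreated, 0 in control-ethanol and 410 in control-untreated mice. Ethanol and untreated lists therefore differed in opposite directions with the 2 vectors in the full lists. The peaks ranked at percentiles 21.2 and 59.1 of the knockdown-ethanol list and at 1.98 and 18.1 of the control-untreated list. With lists cut to equal length Ccnb1 kept 246 bases in knockdown-ethanol mice and had 0 in control-untreated mice, so the difference with control vector was gone. Its H3K27ac coverage was 205 bases in knockdown-ethanol, 283 in knockdown-untreated, 188 in control-ethanol and 204 in control-untreated mice. All 4 H3K27ac peaks lay upstream, within 181 to 490 bases before the start site. Their score percentiles were 30.0 in knockdown-ethanol, 68.4 in knockdown-untreated, 71.3 in control-ethanol and 82.0 in control-untreated mice.

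Cdk1 (chr10:69335146-69352912, minus strand) had 237 bases of H3K9ac in knockdown-ethanol, 487 in knockdown-untreated, 179 in control-ethanol and 704 in control-untreated mice. Both ethanol lists were below both untreated lists, but at equal list length knockdown-ethanol kept 237 bases and knockdown-untreated 165. Its H3K27ac coverage was 409 bases in knockdown-ethanol, 339 in knockdown-untreated, 131 in control-ethanol and 0 in control-untreated mice. Here control-untreated was the one list without a peak and both knockdown lists were above both control lists. The H3K9ac peaks were scattered over both sides of the start site. In knockdown-ethanol mice the single peak lay 444 to 680 bases after it, and in control-ethanol mice 342 to 164 bases before it.

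Ect2 and Diaph3 act at the contractile ring that divides the cell. Ect2 (chr3:27097222-27154253, minus strand) activates RhoA at the cleavage furrow. Its H3K9ac coverage was 0 bases in knockdown-ethanol, 720 in knockdown-untreated, 514 in control-ethanol and 503 in control-untreated mice. Knockdown-ethanol was the one list without a peak, and in each of the other 3 lists a peak lay on either side of the start site. Its H3K27ac coverage was 481 bases in knockdown-ethanol, 356 in knockdown-untreated, 436 in control-ethanol and 480 in control-untreated mice. H3K27ac was thus present in all 4 lists. At equal list length it was 230 bases in knockdown-ethanol mice, the lowest of the 4.

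A further Ect2 region (chr3:27157729-27158837), 3851 to 4959 bases upstream of the start site, carried H3K27ac in all 4 lists and no H3K9ac. Its covered length was 851 bases in knockdown-ethanol, 726 in knockdown-untreated, 1029 in control-ethanol and 1072 in control-untreated mice. It was longer than the H3K27ac coverage at the gene ends in every list. The lncRNA gene 1700125G22Rik lies between it and Ect2 and overlaps the upper end of Ect2.

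Diaph3 (chr14:86655357-87141247, minus strand) encodes a formin, which nucleates and elongates actin filaments. It had 851 bases of H3K9ac in knockdown-ethanol, 590 in knockdown-untreated, 301 in control-ethanol and 568 in control-untreated mice. The highest value was in knockdown-ethanol and the lowest in control-ethanol mice, but at equal list length control-untreated mice had the highest, at 568 bases against 412 in knockdown-ethanol mice. For H3K27ac it had 472 bases in knockdown-ethanol, 0 in knockdown-untreated, 463 in control-ethanol and 469 in control-untreated mice. The 3 lists with a peak differed by 9 bases at most and knockdown-untreated held none. At equal list length, and with a minimum score of 4, knockdown-ethanol kept 314 bases while the control lists kept 463 and 469.

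Inside Diaph3, far from the start site, stood the widest acetylated region of any of the 10 genes (chr14:86748356-86750680). It carried H3K27ac over 2032 bases in knockdown-ethanol, 1944 in knockdown-untreated, 1642 in control-ethanol and 1898 in control-untreated mice. It lay 390544 to 392868 bases downstream of the start site, and its highest-ranked peak reached percentile 85.0 of its list. H3K9ac there was limited to 151 bases in knockdown-ethanol mice. Peaks found downstream of Cdc6 and Ccnb1 lay at the ends of the neighbouring genes Rara and Cenph and are not counted within 2 kb.

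**Figure D3:**
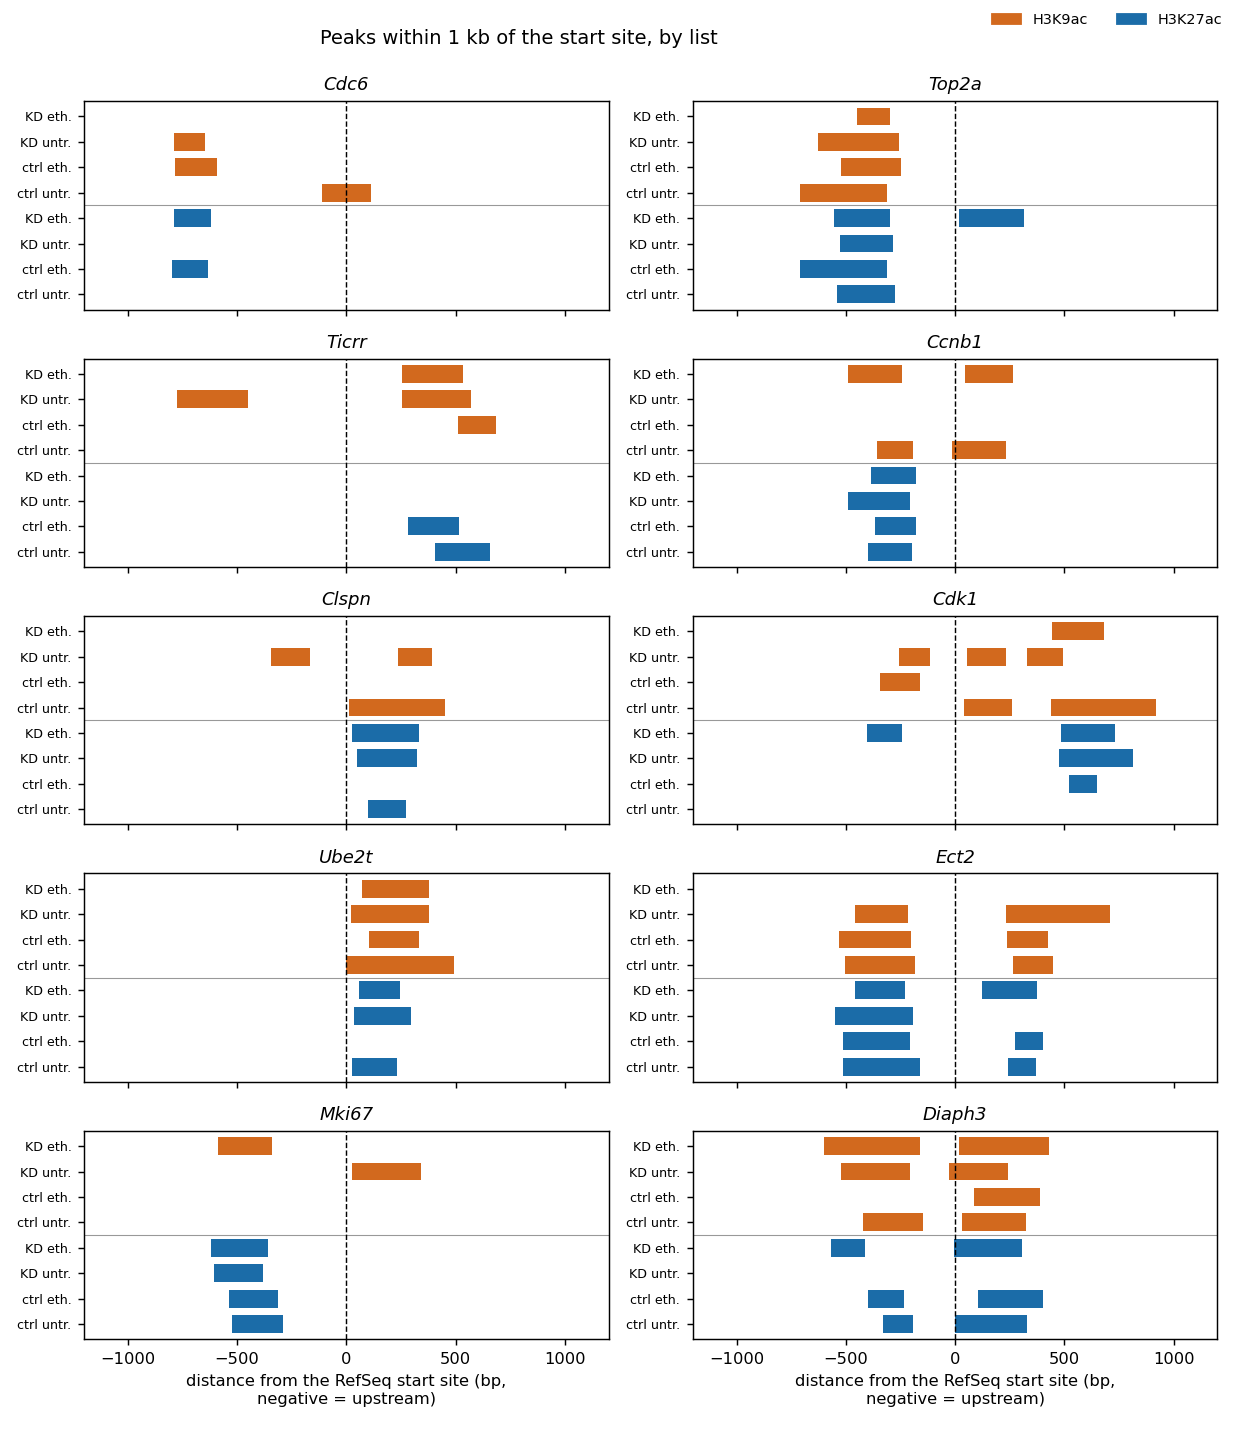
Peaks near the start site of each cell division gene (x axis, distance from the start site in bp, positive downstream), with 1 line per list and a colour for each mark. Peaks lie on either side of the start site and few span it, and the place of a peak shifts between lists for Cdc6, Mki67 and Cdk1.

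Within 1 kb of the start sites the 10 genes held 84 peaks in the 8 lists, 44 of H3K9ac and 40 of H3K27ac. They were narrow, with a median width of 246 bases (128 to 492), against list medians of 551 to 711 bases for H3K9ac and 635 to 775 bases for H3K27ac over all genes. Midpoints were upstream for 42 and downstream for 42, with medians 368 bases before and 234 bases after the start site. Only 6 of the 84 spanned the start site, against 23.6% to 33.8% of H3K9ac and 36.7% to 45.0% of H3K27ac promoter peaks of all genes. That count depends on the start site used. Those of Cdc6 (chr11:98908151) and Ect2 (chr3:27153878) lie inside the gene bounds given above. The Ect2 peaks called upstream overlap the upper bound of the gene. By score within their list, 10 of the 44 H3K9ac peaks and 27 of the 40 H3K27ac peaks ranked above the list median. Over all genes 69.2% to 79.2% of H3K9ac and 83.9% to 85.7% of H3K27ac promoter peaks did.

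Merging overlapping promoter peaks over the 4 lists gave 19 H3K9ac regions and 15 H3K27ac regions. All 4 lists shared 3 of the H3K9ac and 4 of the H3K27ac regions. A single list held 5 of the H3K9ac and 3 of the H3K27ac regions. The 2 marks overlapped only in part at these promoters. In all, 52 of the 84 peaks overlapped a peak of the other mark in the same condition, while over all genes 95.0% to 96.9% of H3K9ac and 80.4% to 87.7% of H3K27ac promoter peaks did.

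Ethanol was compared with no treatment in control-vector mice first, which asks what ethanol does where ACSS2, the enzyme that makes acetyl-CoA from acetate, is intact. The mean H3K9ac coverage of the 10 genes was 185.7 bases in control-ethanol and 373.8 bases in control-untreated mice, a difference of -188.1 bases. A peak was present only in the ethanol list for 1 gene (Ticrr), against 0.631% of all protein-coding genes, and only in the untreated list for 2 (Clspn and Ccnb1), against 3.84%. Coverage was higher with ethanol at 2 genes, against 8.55% of all genes, and lower at 7, against 52.8%. Of the 13436 protein-coding genes with a peak in either list, 11552 had lower and 1872 higher coverage with ethanol. The median difference over genes with a peak in either list was -278 bases for all genes, next to -265 bases for the cell division genes. Nothing is read from such shares here or in the comparisons that follow, since the genes were chosen from the same contrasts.

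For H3K27ac in control-vector mice the mean coverage of the 10 genes was 224 bases in control-ethanol and 228 bases in control-untreated mice, a difference of -4 bases that was 42 bases with windows of 5 kb. The ethanol list alone held a peak for 2 genes (Cdc6 and Cdk1; 1.74% of all genes) and the untreated list alone for 2 (Clspn and Ube2t; 1.53% of all genes). It was higher with ethanol at 3 genes (30.0% of all genes) and lower at 7 (35.6% of all genes). The mean hardly differed while 4 genes switched between presence and absence.

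With the ACSS2 knockdown, the mean H3K9ac coverage of the 10 genes was 253.4 bases in knockdown-ethanol and 410.8 bases in knockdown-untreated mice, a difference of -157.4 bases. Ccnb1 was the only gene with a peak in the ethanol list alone (1 gene; 2.44% of all genes), and 3 had one in the untreated list alone (Cdc6, Clspn and Ect2; 1.19% of all genes). Coverage was higher with ethanol at 2 genes (39.0% of all genes) and lower at 8 (23.4% of all genes). At equal list length Mki67 and Cdk1 were higher with ethanol too. The median difference over genes with a peak in either list was -234.5 bases for the 10 genes and 80 bases for all genes, from which nothing is read either. The 148 other cell cycle genes were split, 73 higher and 64 lower.

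For H3K27ac with the knockdown, the mean coverage of the 10 genes was 323 bases in knockdown-ethanol and 197.9 bases in knockdown-untreated mice. In the ethanol list alone, 2 genes had a peak (Cdc6 and Diaph3; 2.32% of all genes), and 0 had one in the untreated list alone (0.927% of all genes). At 8 genes coverage was higher with ethanol (47.0% of all genes) and lower at 1, Ccnb1 (20.6% of all genes). The mean difference was 125.1 bases, and 61.4 bases at equal list length, where Cdk1 and Ect2 were lower as well. The median difference over genes with a peak in either list was 70 bases for the 10 genes and 122 bases for all genes. The means of the 2 marks over the 10 genes thus differed in opposite directions with ethanol in knockdown mice.

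Knockdown was compared with control vector in ethanol-treated mice. The mean H3K9ac coverage of the 10 genes was 253.4 bases in knockdown-ethanol and 185.7 bases in control-ethanol mice, a difference of 67.7 bases. These are the longest and the shortest H3K9ac list, and at equal list length the difference was -25.9 bases. A peak was present only in the knockdown list for 2 genes (Mki67 and Ccnb1; 4.30% of all genes) and only in the control list for 2 (Cdc6 and Ect2; 0.589% of all genes). Coverage was higher with the knockdown at 6 genes (54.5% of all genes) and lower at 3 (7.30% of all genes). For H3K27ac the mean was 323 bases in knockdown-ethanol and 224 bases in control-ethanol mice. A peak was present only in the knockdown list for 2 genes (Clspn and Ube2t; 3.23% of all genes) and only in the control list for 1 (Ticrr; 0.612% of all genes). At 9 genes coverage was higher with the knockdown (55.7% of all genes) and lower at 1 (11.6% of all genes). These lists too are the longest and the shortest, and at equal list length the mean difference fell from 99 to 12.7 bases. Top2a, Ect2 and Diaph3 were then lower with the knockdown, as was Ticrr. Cdc6, Clspn, Ube2t, Mki67, Ccnb1 and Cdk1 stayed higher.

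In untreated mice the mean H3K9ac coverage was 410.8 bases in knockdown-untreated and 373.8 bases in control-untreated mice, a difference of 37 bases that was -81.1 bases with windows of 5 kb. A peak was present only in the knockdown list for 2 genes (Ticrr and Mki67; 1.38% of all genes) and only in the control list for 1 (Ccnb1; 2.13% of all genes). Coverage was higher with the knockdown at 5 genes (27.1% of all genes) and lower at 5 (34.9% of all genes). The H3K27ac mean was 197.9 bases in knockdown-untreated and 228 bases in control-untreated mice, a difference of -30.1 bases that was 73.3 bases with windows of 5 kb and 162.4 over the gene body with 5 kb on each side. A peak was present only in the knockdown list for 1 gene (Cdk1; 2.50% of all genes) and only in the control list for 2 (Ticrr and Diaph3; 1.06% of all genes). At 4 genes coverage was higher with the knockdown (43.6% of all genes) and lower at 5 (22.8% of all genes). Without ethanol the 10 genes thus had no common direction for either mark. The contrasts share lists with one another, and none of them was tested.

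**Figure D4:**
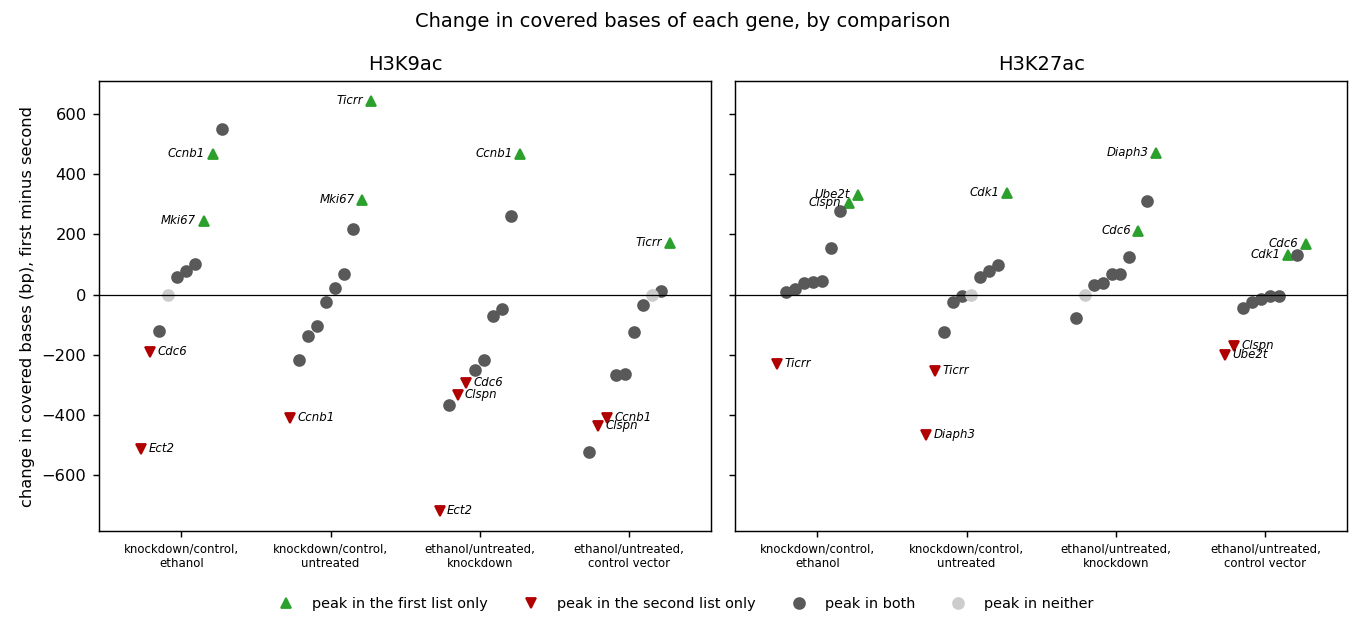
Difference in covered bases of each cell division gene (y axis, bp, first condition minus second) in each comparison (x axis), with named triangles for genes with a peak in only one of the 2 lists. The largest drops are Ect2 H3K9ac with ethanol in knockdown mice (-720 bp) and Cdk1 H3K9ac with ethanol in control-vector mice (-525 bp).

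The balance of the marks within a condition also varied. In every condition 6 of the 10 genes had both marks, as did 57.3% to 60.8% of all protein-coding genes. H3K9ac coverage exceeded H3K27ac coverage at 3 genes in knockdown-ethanol, 9 in knockdown-untreated, 4 in control-ethanol and 8 in control-untreated mice. Over all protein-coding genes it did so at 18.0% in knockdown-ethanol, 20.4% in knockdown-untreated, 11.9% in control-ethanol and 27.7% in control-untreated mice. The share was lower with ethanol than without it, with either vector, both at the 10 genes and over all genes. H3K9ac alone marked 1 gene in knockdown-ethanol, 3 in knockdown-untreated, 1 in control-ethanol and 2 in control-untreated mice. Over all protein-coding genes with either mark, H3K9ac alone was found at 0.659% in knockdown-ethanol, 0.687% in knockdown-untreated, 0.376% in control-ethanol and 1.20% in control-untreated mice.

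Other genes of the cell cycle were described in the same way. Of 148 other cell cycle genes, 127 (85.8%) had a peak within 2 kb of a gene end in all 8 peak lists. Another 13 had one in some and 8 in none (Orc1, Dnmt1, Ccnb2, Cdkn1a, Mybl2, Skp2, Ect2l and Septin9). Over all protein-coding genes 56.0% had a peak in all 8 lists and 12.8% in some. Promoters that lie inside a gene are not covered by the window. All 14 genes of the replication checkpoint and crosslink repair list, and 27 of 29 for replication licensing and origin firing, had a peak in all 8 lists. Those that varied were Mcm10, Tk1, Cdkn1c, Cdc25c, Aurkb, Melk, Bub1b, E2f8, Cenpf, Tpx2, Aspm, Cdc20 and Cit.

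With ethanol in control-vector mice, H3K9ac coverage was higher at 21 and lower at 115 of the 148 genes, of which 137 had a peak in either list. Of the 13436 protein-coding genes with a peak in either list, 1872 were higher and 11552 lower. A peak was absent with ethanol and present without it at 4 genes, Cenpf, Tk1, Tpx2 and Aurkb (3.84% of all genes). The reverse held for Cdc20 (0.631% of all genes). With ethanol in knockdown mice, the thymidine kinase gene Tk1 had 0 bases of H3K9ac in knockdown-ethanol and 657 bases in knockdown-untreated mice. A peak only without ethanol was found at 1.19% of all genes. Peaks of Cdc25c and Aspm were found only with ethanol (2.44% of all genes). Knockdown against control vector gave 107 higher and 30 lower in ethanol-treated mice, next to 11932 higher and 1597 lower of all protein-coding genes. Peaks of Aurkb, Tpx2, Melk and Cenpf were found only in the knockdown (4.30% of all genes). In untreated mice the same comparison gave 59 higher and 79 lower, next to 5935 higher and 7648 lower of all protein-coding genes. Peaks of Melk and Cdc20 were found only in the knockdown (1.38% of all genes). Those of Aspm and Cdc25c were found only in control mice (2.13% of all genes).

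With ethanol, H3K27ac coverage of the 148 genes was higher at 95 and lower at 43 in knockdown mice. In control-vector mice it was higher at 70 and lower at 67. Over all protein-coding genes, 10280 were higher and 4518 lower in knockdown mice, and 6562 higher and 7786 lower in control-vector mice. Knockdown against control vector gave 110 higher and 27 lower with ethanol and 91 higher and 45 lower without it. Over all protein-coding genes it gave 12198 higher and 2532 lower with ethanol and 9533 higher and 4985 lower without it. With ethanol, H3K27ac peaks of Aurkb and Tk1 were found only in the knockdown (3.23% of all genes). Without ethanol, those of Cdkn1c, Melk and Cit were found only in the knockdown (2.50% of all genes). Those of Cenpf and E2f8 were then found only in control mice (1.06% of all genes). With control vector, H3K27ac peaks of Aspm, Cdkn1c, Melk and Cit were found only with ethanol (1.74% of all genes). Those of Tk1 and Mcm10 were found only without it (1.53% of all genes). In knockdown mice, peaks of Aurkb, Cenpf, Aspm and E2f8 were found only with ethanol (2.32% of all genes). That of Mcm10 was found only without it (0.927% of all genes). The mitotic kinase gene Aurkb had 351 bases in knockdown-ethanol mice and 0 in each of the other 3 H3K27ac lists. Mcm10, a replication factor, had 0 bases in knockdown-ethanol, 151 in knockdown-untreated, 0 in control-ethanol and 135 in control-untreated mice. Its control-untreated peak ranked at percentile 3.85 of its list. Aspm had the reverse pattern, with 151 bases in knockdown-ethanol, 0 in knockdown-untreated, 378 in control-ethanol and 0 in control-untreated mice.

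Some of these genes had the same pattern of presence over the 8 lists as a cell division gene. Tk1 matched Clspn, with H3K9ac in neither ethanol list and in both untreated lists, and H3K27ac in all but control-ethanol mice, a pattern held by 8 other protein-coding genes in all. Cit, a kinase of cytokinesis, matched Cdk1, and the transcription factor gene E2f8 matched Diaph3. These patterns rest on presence or absence in 8 lists and say nothing of shared control.

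Coverage of the cell type markers varied between lists as well. The summed H3K9ac coverage of the 10 progenitor and newborn neuron markers was 12638 bases in knockdown-ethanol, 9812 in knockdown-untreated, 6233 in control-ethanol and 10448 in control-untreated mice. That of the 7 mature neuron markers was 12926 bases in knockdown-ethanol, 9660 in knockdown-untreated, 6393 in control-ethanol and 11217 in control-untreated mice. Both lists of markers were highest in knockdown-ethanol and lowest in control-ethanol mice, as were the lengths of the peak lists. The 7 oligodendrocyte precursor markers summed to 5047 bases in knockdown-ethanol, 3165 in knockdown-untreated, 4481 in control-ethanol and 6598 in control-untreated mice. For H3K27ac the progenitor markers summed to 15597 bases in knockdown-ethanol, 14122 in knockdown-untreated, 11582 in control-ethanol and 12617 in control-untreated mice. The oligodendrocyte precursor markers summed to 9325 bases of H3K27ac in knockdown-ethanol, 8138 in knockdown-untreated, 11248 in control-ethanol and 8966 in control-untreated mice. For H3K27ac the progenitor markers were thus highest in knockdown-ethanol and the oligodendrocyte precursor markers in control-ethanol mice. The mature neuron markers summed to 20393 bases of H3K27ac in knockdown-ethanol, 18377 in knockdown-untreated, 14361 in control-ethanol and 16609 in control-untreated mice. Their order over the conditions was that of the progenitor markers and of the H3K27ac list lengths. The 7 microglial markers summed to between 585 and 1370 bases of H3K9ac and the 5 endothelial markers to between 145 and 430 bases. The part of cell composition in the values of the cell division genes was not tested.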

How the data were processed

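ChIP-seq of H3K9ac, H3K27ac and input was done in mouse dorsal hippocampus, in 36 samples that form 12 groups of 3 replicates, grouped by the sample labels. The authors deposited 1 peak list per mark and condition (8 lists), called against input at a false discovery rate of 0.001 per the labels. The way replicates were pooled is not given in these sources. Tools listed in the submitters' processing notes, with no role given, are MACS2, bedtools, STAR 2.5.2a and bcl2fastq, and the build is GRCm38 (mm10). The score in the deposited lists was read as −log10 of a q-value and used only to rank peaks within a list. Read depth is unknown.

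Peaks on the 19 autosomes, X and Y were joined with the coordinates of 21887 protein-coding genes from RefSeq (GRCm38.p6) in Python 3.11.15 with pandas 2.3.3 and numpy 2.4.6. Overlapping peaks were merged before bases were counted, and scripts were checked on simulated data. Values of 1 marker gene are not reported here. With 1 list per group no test was run and no p-value is given. All 10 genes are named. Of the 148 other cell cycle genes, up to 5 per contrast and direction that had a peak in only one list are named, by score rank, with genes sharing a presence pattern of a cell division gene. The genes and gene lists were chosen with earlier results of these data known. The alternatives were windows of 1 and 5 kb, the gene body with 5 kb on each side, a minimum score of 4, lists of equal length, placing peaks by midpoint and, added after the data were seen, windows at the start site alone.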

Additional observations from a re-analysis of the deposited data

Results flagged for a closer look

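H3K9ac at Ccnb1 differed in opposite directions between ethanol and untreated mice with the 2 vectors. The difference in covered bases within 2 kb of the gene ends was 467 in knockdown mice, with 467 bases in knockdown-ethanol and 0 in knockdown-untreated mice. In control-vector mice it was -410, with 0 bases in control-ethanol and 410 in control-untreated mice. The 2 control-untreated peaks ranked at percentiles 1.98 and 18.1 of their list, and with lists cut to equal length both were gone, so the difference with control vector was 0 while that in knockdown mice was 246. The difference between the vectors was not tested, since each condition has 1 list.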

How the results depend on the processing

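The number of cell division genes with a peak stayed within 1.5 times of the reported value in all 56 recomputed values, and so did 90 of 112 counts of genes with a peak in only one list and 30 of 56 mean differences. Windows of 5 kb around the gene ends gave mean differences of -66.5 (ethanol, knockdown) and -297.9 (ethanol, control vector) for H3K9ac, and of 150.3 (knockdown, ethanol) and -81.1 (knockdown, untreated). For H3K27ac they gave 42 (ethanol, control vector), 151.5 (knockdown, ethanol) and 73.3 (knockdown, untreated) bases. The gene body with 5 kb on each side gave -51.4, -297.9, 165.4 and -81.1 for H3K9ac in the same comparisons, and 306.3 (ethanol, knockdown), 4.9 (ethanol, control vector), 463.8 (knockdown, ethanol) and 162.4 (knockdown, untreated) for H3K27ac. Both of these windows gave 1 gene with an H3K9ac peak only in the untreated list with control vector, 0 only in the ethanol list with knockdown, 1 only in each list for knockdown against control vector with ethanol, and 0 only in the control list without ethanol. For H3K27ac both gave 1 gene only in the ethanol list with control vector and 0 only in the control list for knockdown against control vector with ethanol, while with 5 kb windows 1 gene, and with the gene body 0, had a peak only in the ethanol list with knockdown and only in the control list without ethanol. Against the reported values, the H3K9ac mean for knockdown without ethanol and the H3K27ac means for ethanol with control vector and knockdown without ethanol changed sign in both windows. These windows take in peaks at the neighbouring genes Rara, Cenph and Kif7. In them the Cdc6 H3K9ac difference became 149 (ethanol, knockdown) and 354 (knockdown, ethanol), the Ticrr H3K27ac difference 6 (knockdown, ethanol) and, with the gene body only, the Diaph3 H3K27ac difference 422 (knockdown, untreated), all with the opposite sign.

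A minimum score of 4 gave -98 (ethanol, knockdown) and 2.2 (knockdown, untreated) for H3K9ac, and 54.7 (ethanol, knockdown) and 28.6 (knockdown, ethanol) for H3K27ac. Lists cut to equal length, 31042 H3K9ac and 86110 H3K27ac peaks, gave -106.9 (ethanol, control vector) and -25.9 (knockdown, ethanol) for H3K9ac, where the sign of the second value was opposite, and 61.4 (ethanol, knockdown), 12.7 (knockdown, ethanol) and -52.7 (knockdown, untreated) for H3K27ac. They also gave 1 gene with an H3K9ac peak only in the untreated list with control vector, 2 only in the ethanol list with knockdown, and 1 only in the knockdown list and 0 only in the control list without ethanol. That left no peak for Ticrr H3K9ac in knockdown-ethanol mice, Mki67 H3K9ac and H3K27ac in knockdown-untreated mice and Ccnb1 H3K9ac in control-untreated mice. The H3K9ac difference for knockdown without ethanol was 13.9 with windows of 1 kb and 22.1 at the start site alone, a setting chosen after seeing the data. The cause of these shifts was not tested. The lower mean H3K9ac coverage with ethanol kept its sign under every setting run, with either vector.

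No paired analysis was possible because the result comes from no test and each list pools its replicates, and leaving out a replicate could not be run for the same reason. The unknown depth limits every value: absence of a peak means that none passed the authors' threshold, not that acetylation was absent.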
